A study of Mus musculus with 21 samples.

Results

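The AP-2 transcription factor genes and the genes of their known cofactors were followed in mouse epidermis: Tfap2a, Tfap2b, Tfap2c and Tfap2e, the repressors Kctd1 and Kctd15, and the coactivators Cited1, Cited2 and Cited4. These 9 genes were taken by symbol, after Ensembl identifiers were matched to the GENCODE M21 annotation, from the 49315 gene identifiers in the count files, and all 9 were found. The rule names the genes and uses no measured value, but the list was drawn up with earlier results of these data known.

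The study asked what AP-2α and AP-2β, the products of Tfap2a and Tfap2b, do in the adult epidermis, and measured total RNA of epidermal sheets from mouse skin. Its 21 samples formed 7 groups of 3, but in 13 files every gene was listed at 0, so 8 libraries could be used. At 6 months of age these were 3 libraries labelled K14CreTfap2afl/flTfap2bfl/fl, called double knockout here, and 3 labelled control-strain specific, with the genotype given as wild type. At 3 weeks of age they were replicates 1 and 2 labelled K14CreTfap2bfl/fl, the Tfap2b knockout. K14Cre places Cre recombinase under the Krt14 promoter, active in basal keratinocytes, so floxed alleles are expected to be lost in keratinocytes and kept in other cells of the sheet. The controls are labelled wild type, and whether they carried the transgene or floxed alleles is not given. At 3 weeks no file had counts for the double knockout, the K14CreTfap2afl/fl mice or either set of controls, nor did replicate 3 of the Tfap2b knockout. The labels do not say that the samples of a group came from separate animals, so the p-values below measure only the spread between these samples.

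AP-2 proteins bind DNA as dimers at GC-rich palindromes and have long been known as regulators of keratin genes in the epidermis, where AP-2α is the most studied member. KCTD1 and KCTD15 are BTB-domain proteins that bind AP-2α and hold back its transcriptional activity. CITED proteins do not bind DNA themselves. They bridge AP-2 factors to the histone acetyltransferases p300 and CBP, and CITED2 also competes with the hypoxia factor HIF-1α for them.

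The AP-2 genes are paralogs, and their sequences show how far reads from one can be told from those of another. The 60 coding bases of Tfap2a that were most alike in the other 3 genes are given here in 5′ to 3′ direction, from the GENCODE M21 transcripts on GRCm38, with capitals at bases that differ from Tfap2a.
Tfap2a: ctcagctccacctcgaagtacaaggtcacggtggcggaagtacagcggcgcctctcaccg
Tfap2b: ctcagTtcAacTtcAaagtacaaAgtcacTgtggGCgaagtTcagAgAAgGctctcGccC
Tfap2c: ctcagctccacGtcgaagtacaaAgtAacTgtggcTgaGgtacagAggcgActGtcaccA
Tfap2e: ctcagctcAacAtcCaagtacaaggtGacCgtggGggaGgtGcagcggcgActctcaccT
In this stretch Tfap2b differed from Tfap2a at 15 bases, and Tfap2c and Tfap2e at 10 each. It was chosen for likeness to the other 3 genes together and need not be the closest stretch for any single pair. Over the aligned part of the coding sequences Tfap2a was 71.1% identical to Tfap2b (1324 bases), 68.1% to Tfap2c (1376 bases) and 65.5% to Tfap2e (1309 bases). The longest run of identical bases between any annotated transcripts of Tfap2a and Tfap2b, untranslated parts included, was 29. Kctd1 and Kctd15 were 77.2% identical over the 852 bases that aligned, of 2586 coding bases in the Kctd1 transcript, and Cited2 and Cited4 were 72% identical over 547 aligned bases. No stretch of 150 bases, the read length, was identical between any of the 9 genes and a relative in its family.

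The promoters were read for the AP-2 consensus GCCNNNGGC, 9 bases that read the same on both strands, in RefSeq windows of 250 bases before to 50 after each transcription start (build GRCm38.p6). Of the 9 genes, 7 were in the table. The motif stood in the windows of Kctd15 and Cited1, which is 2 of 7 genes (28.6%), beside 18.5% of the 27025 genes in the table. By window it was 3 of 12 (25%) beside 16.6% of 32851. The windows with a match are shown because one of them holds 3 matches, with capitals at the motif. They are Kctd15 at chr7:34653123-34653182, Kctd15 at an upstream start site at chr7:34655642-34655701, and Cited1 at chrX:102250835-102250894, all on the minus strand.
Kctd15: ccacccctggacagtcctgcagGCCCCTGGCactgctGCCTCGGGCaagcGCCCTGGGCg
Kctd15 upstream: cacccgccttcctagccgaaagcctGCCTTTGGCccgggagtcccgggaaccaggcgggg
Cited1: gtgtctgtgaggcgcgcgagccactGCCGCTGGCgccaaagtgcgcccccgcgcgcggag
In the first of these the matches began 228, 213 and 200 bases before the start site. In the upstream Kctd15 window the match began 167 bases before its start site, and in Cited1 93 bases before. The windows of Tfap2a, Tfap2b, Tfap2e, Cited2 and Cited4 held no run of these letters. A match describes letters and does not show binding.

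The 8 libraries held 11318181 to 17746284 counts assigned to genes, so that 3 counts, the limit that a count of 0 allows, correspond to 0.169 to 0.265 counts per 1000000 counts (CPM). Replicates 1 and 2 of the control stood apart: 35794 and 39362 genes had a count in them, beside 23454 to 25537 in the other 6 libraries. Odorant and vomeronasal receptor genes, known from sensory neurons of the nose and taken here as a background, held 1.61 and 3.189 counts per exonic kb in those control libraries and 0.0970 to 0.195 in the other 6. Basal keratinocyte markers summed to 8348.3 to 10665.1 CPM in the controls and 15927.7 to 19035.7 in the double knockout. Sebaceous gland markers summed to 747.5 to 937.3 CPM and 205.7 to 239.3, and dermal fibroblast markers to 59.25 to 170.6 and 13.76 to 25.36. The part of these shifts in the results below was not tested. Values without both control libraries of high receptor-gene background are given where they matter. The control ranges of these markers include replicate 3 and lie apart from the double knockout, so that setting does not remove the marker shifts. In bulk RNA, fewer cells of a type and less RNA per cell cannot be told apart.

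Across the genes tested at 6 months with edgeR's quasi-likelihood test, 2637 of 17755 (14.9%) passed a Benjamini-Hochberg adjusted p of 0.05 in the double knockout against the control. Of the 9 AP-2 and cofactor genes 8 had enough counts to be tested, and 2 of the 8 (25%) passed. Tfap2c rose, where 6.26% of all genes tested rose, and Cited2 fell, where 8.59% fell. In 5 of the 8 genes every library of one group lay above every library of the other, beside 38.7% of all genes tested. Among the 8, Tfap2a, Tfap2c and Tfap2e lay higher in the double knockout, Tfap2b and Cited2 lower, and Kctd1, Kctd15 and Cited4 overlapped. With the TMM scaling factors of the fit, tried after seeing the data, the count was 4 of 8, beside 37.7% of all genes tested, because Tfap2a then overlapped. The median log2 fold change of the 8 genes was 0.08, beside -0.04 for all genes tested, and their median absolute log2 fold change was 0.45, beside 0.44.

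**Figure D1:**
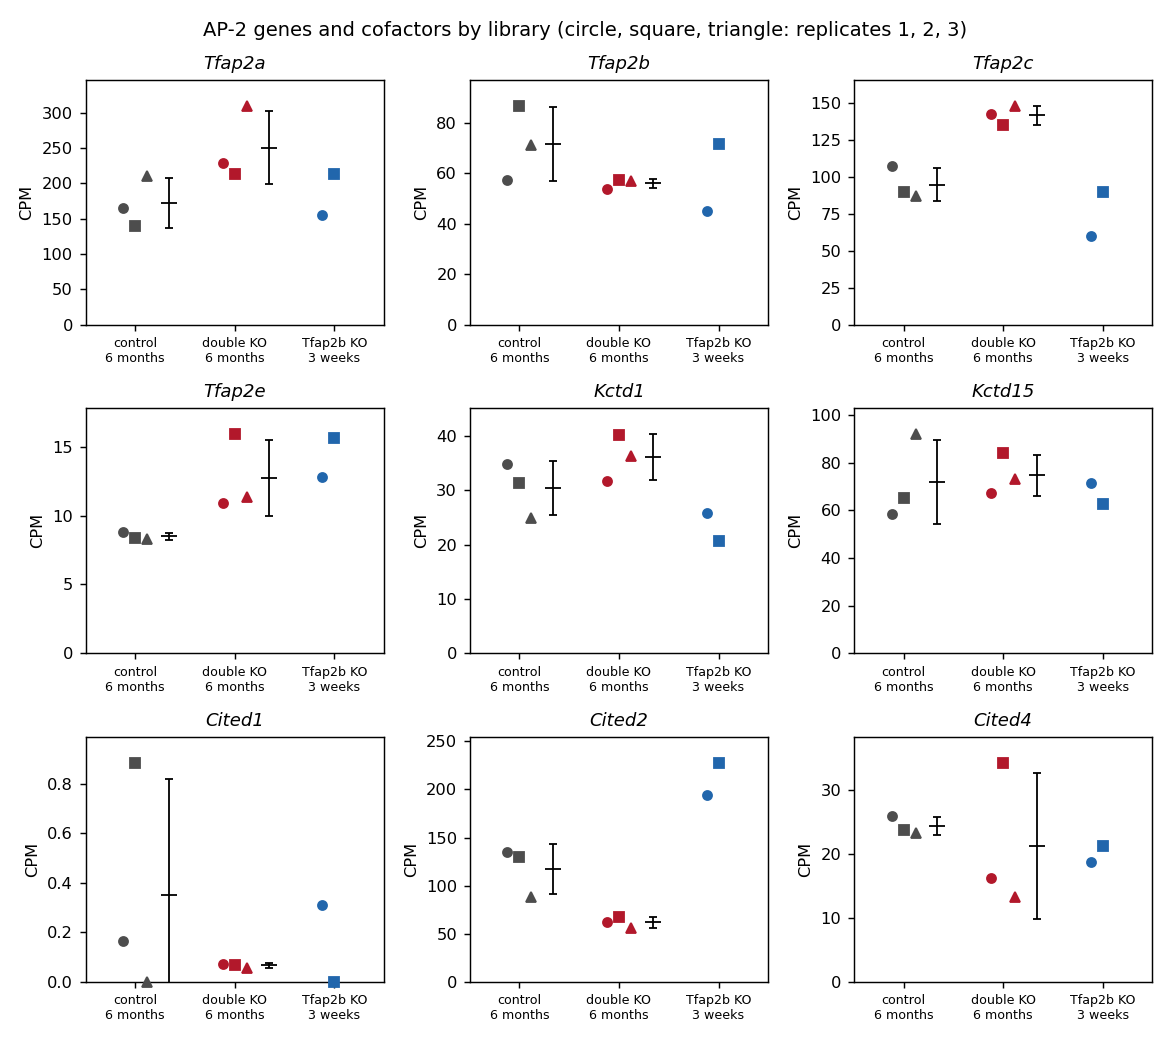
CPM (y axis, linear, from 0) of the 9 genes in each library with counts, by group; circle, square and triangle mark replicates 1, 2 and 3, and black bars give the mean and SD of the 3 libraries at 6 months. Cited2 sits at 55.67 to 67.43 CPM in the double knockout and at 87.83 to 135 in the control, and Tfap2c sits at 135.1 to 147.6 and at 86.79 to 107.3.

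Tfap2a and Tfap2b, the targeted genes, were read first as a check of the labels. Tfap2a (ENSMUSG00000021359, GRCm38 chr13:40715675-40733823, minus strand, 8 exon blocks) stood at 164.6, 140.3 and 210.1 CPM in control replicates 1, 2 and 3. In the double knockout it stood at 228.6, 213.2 and 309.2 CPM. On this scale all 3 libraries labelled double knockout were higher than all 3 controls, although the exact Poisson intervals of the closest pair, 202.9 to 217.5 CPM in control replicate 3 and 205.8 to 220.8 in double knockout replicate 2, overlapped. With TMM factors that pair changed places, at 213.5 and 209.1 CPM, so the groups overlapped. The mean was 171.7 ± 35.4 CPM (SD, n = 3) in the control and 250.3 ± 51.6 (SD, n = 3) in the double knockout. The fitted log2 fold change was 0.47 with a standard error of 0.19, and it did not pass edgeR's quasi-likelihood test (adjusted p = 0.118). Without control replicate 3 it did, at a log2 fold change of 0.72 (adjusted p = 0.016 in the same edgeR test). With control replicates 1 and 2 both left out, a setting tried after seeing the data, the log2 fold change was 0.20. That setting keeps control replicate 3 alone, the control library with the low receptor-gene background. Over 18 alternative settings the adjusted p of Tfap2a ran from 0.016 to 0.949, the highest in the test against a null of a 1.5-fold change.

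Tfap2b (ENSMUSG00000025927, chr1:19208914-19238576, plus strand, 8 exon blocks) stood at 57.3, 86.59 and 71.03 CPM in the control and at 53.81, 57.2 and 56.86 CPM in the double knockout. The double knockout libraries were close together and below the control, but control replicate 1 and double knockout replicate 2 were nearly equal, with Poisson intervals of 53.11 to 61.74 and 53.4 to 61.21 CPM. The mean was 71.64 ± 14.7 CPM (SD, n = 3) in the control and 55.96 ± 1.87 (SD, n = 3) in the double knockout. The log2 fold change of -0.43 with a standard error of 0.17 did not pass edgeR's quasi-likelihood test (adjusted p = 0.111), and its 95% interval ran from -0.81 to -0.05.

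Gene-level counts therefore did not show the loss of either targeted gene: in the libraries labelled double knockout Tfap2a kept 3127 to 5488 counts and Tfap2b 743 to 1009. The counts were summed over all annotated exons, and reads outside a deleted stretch, or from cells that do not express K14Cre, enter them. Counts per exon were not analysed here, so these values do not check the deletion, and directions below are those of the libraries labelled double knockout. Tfap2a shares 111 exon bases with the antisense gene Gm26688. The strand setting of the counting is not given in the sources used here, so reads over those bases cannot be assigned to one of them with certainty. Gm26688 stood at 11.1 ± 2.33 CPM (SD, n = 3) in the control and 14.9 ± 5.72 (SD, n = 3) in the double knockout.

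The ratio of Tfap2a to Tfap2b within a library does not depend on the scaling between libraries. In counts per exonic kb, Tfap2a was 5.614, 3.167 and 5.781 times Tfap2b in control replicates 1, 2 and 3. In the double knockout it was 8.301, 7.284 and 10.63 times Tfap2b. All 3 double knockout ratios lay above all 3 control ratios, with a mean of 8.74 ± 1.72 (SD, n = 3) against 4.85 ± 1.46 (SD, n = 3). The log2 ratio was 0.88 higher, and the 2-sided exact permutation test gave p = 0.1, the smallest that 3 libraries against 3 allow (Benjamini-Hochberg adjusted over 2 such tests, 0.2).

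Tfap2c, which encodes AP-2γ, an AP-2 factor of the epidermis and of trophectoderm and germ cells, is not targeted in these mice. The gene (ENSMUSG00000028640, chr2:172549593-172558622, plus strand, 9 exon blocks) stood at 107.3, 90.03 and 86.79 CPM in the control and at 142.3, 135.1 and 147.6 CPM in the double knockout. The groups were well apart, and the spread within the double knockout was small. Tfap2c rose on average from 94.71 ± 11.0 CPM to 141.7 ± 6.25 (SD, n = 3 each). The fitted log2 fold change was 0.50 with a standard error of 0.14 and a fold of 1.42 (edgeR's quasi-likelihood test, adjusted p = 0.0384). The call lay near the threshold. It was lost in 9 of 18 alternative settings, among them leaving out control replicate 2 (0.47, adjusted p = 0.106) or any 1 of the double knockout libraries, subtracting the receptor-gene background (0.44, adjusted p = 0.0628), and leaving out control replicates 1 and 2 together (0.65, adjusted p = 0.0772), though the direction held in all 18. Its adjusted p was 0.943 in the test against a null of a 1.5-fold change, and ran from 0.0132 to 0.106 in the other settings.

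Tfap2e, which encodes AP-2ε, known from the olfactory bulb and cartilage, was the lowest of the 4 AP-2 genes per exonic kb in both groups at 6 months. It (ENSMUSG00000042477, chr4:126716006-126736240, minus strand, 7 exon blocks) held 95 to 233 counts per library at 6 months. The control libraries stood at 8.803, 8.394 and 8.334 CPM and the double knockout libraries at 10.94, 15.89 and 11.33. The groups did not overlap, but the log2 fold change of 0.50 with a standard error of 0.24 did not pass edgeR's quasi-likelihood test (adjusted p = 0.174). Tfap2d, the remaining AP-2 gene of the mouse and active mainly in brain and retina, was too low to test, with 5, 18 and 0 counts in control replicates 1, 2 and 3 and 0 in the other 5 libraries. At the level of the receptor genes, its exonic length would hold 3.145 and 6.231 counts in control replicates 1 and 2 and under 1 count in each of the others.

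**Figure D2:**
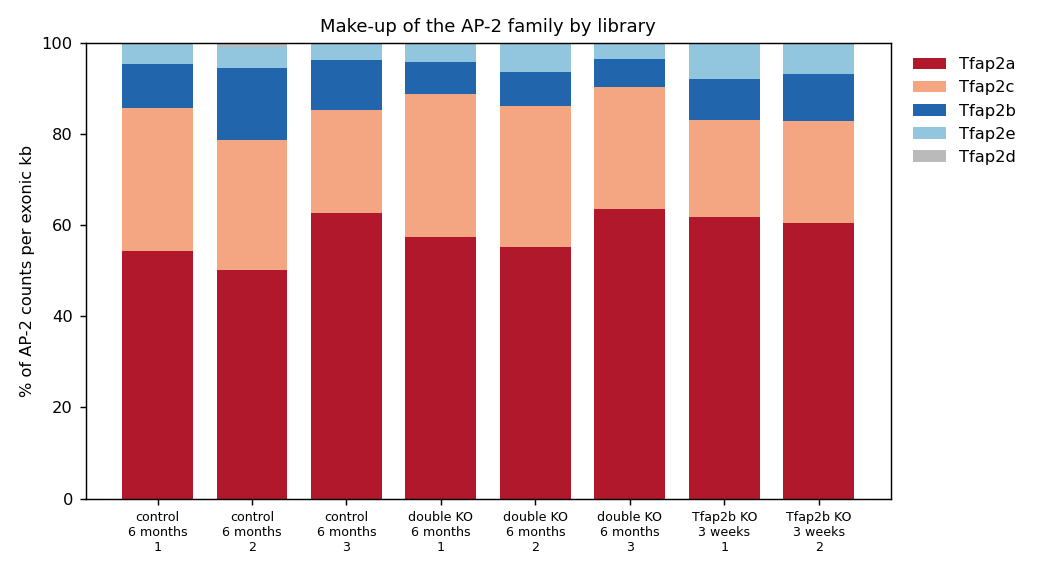
Stacked bars give the share (y axis, percent of counts per exonic kb, summed over the 5 AP-2 genes) of each AP-2 gene in the 8 libraries with counts. Tfap2a makes up 50.17% to 63.63% in every library, and the Tfap2b share is 9.68% to 15.84% in the control and 5.985% to 7.577% in the double knockout.

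Counts per exonic kb allow the AP-2 genes to be set beside one another. Their sum was 93.4, 86.24 and 103.6 CPM per kb in control replicates 1, 2 and 3 and 122.9, 119.1 and 149.9 in the double knockout, so the double knockout libraries were all higher. Tfap2a made up 55.7% ± 6.30 of the sum in the control and 58.7% ± 4.38 in the double knockout (SD, n = 3 each), and these shares overlapped. The share of Tfap2b did not overlap: it was 9.68%, 15.84% and 10.82% in the control and 6.908%, 7.577% and 5.985% in the double knockout. The share of Tfap2c was 31.23%, 28.38% and 22.77% in the control and 31.48%, 30.84% and 26.76% in the double knockout. These overlapped, and the exact permutation test of the Tfap2c share (2-sided, n = 3 each) gave p = 0.6, adjusted over the 2 tests 0.6. Tfap2c per Tfap2a likewise overlapped, at 0.5746, 0.5656 and 0.3641 in the control and 0.5488, 0.5587 and 0.4207 in the double knockout.

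The levels of the KCTD repressors overlapped between the groups, and neither passed the test. Kctd1 (ENSMUSG00000036225, chr18:14968685-15151446, minus strand, 6 exon blocks) stood at 34.8, 31.45 and 25 CPM in the control and at 31.79, 40.23 and 36.29 CPM in the double knockout. The groups overlapped, and the log2 fold change was 0.17 with a 95% interval from -0.25 to 0.59 (edgeR's quasi-likelihood test, adjusted p = 0.56). Kctd15 (ENSMUSG00000030499, chr7:34639014-34656732, minus strand, 11 exon blocks), an inhibitor of AP-2 in neural crest formation, stood at 58.55, 65.03 and 91.8 CPM in the control and at 67.06, 84.06 and 72.92 in the double knockout. The highest and the lowest value were both in the control. The log2 fold change was -0.02 with a 95% interval from -0.43 to 0.39 (adjusted p = 0.963 in edgeR's quasi-likelihood test) and its sign turned under total-count scaling (0.05). Kctd15 shares 104 exon bases with the antisense gene Gm12781, which was low at 0.843 ± 0.266 CPM in the control and 0.989 ± 0.315 in the double knockout (SD, n = 3 each).

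Per exonic kb, Kctd15 was 1.424, 1.75 and 3.108 times Kctd1 in the control and 1.785, 1.769 and 1.701 times in the double knockout. The double knockout ratios were close together and lay within the control range. Set against the AP-2 genes, the 2 KCTD genes together stood at 0.2518, 0.2796 and 0.2764 times the summed AP-2 level per kb in the control. In the double knockout they stood at 0.2009, 0.2607 and 0.1823, and the groups overlapped at double knockout replicate 2.

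Cited2 had the largest absolute log2 fold change and the lowest adjusted p of the 8 tested genes. It encodes a coactivator that is needed for neural tube and heart development and works with AP-2 factors there. The gene (ENSMUSG00000039910, chr10:17723228-17725673, plus strand, 2 exon blocks) stood at 135, 130 and 87.83 CPM in control replicates 1, 2 and 3. In the double knockout it stood at 62.64, 67.43 and 55.67 CPM. All double knockout libraries were lower than all controls, and control replicate 3 was the nearest to them, with a Poisson interval of 83.21 to 92.65 CPM. Cited2 fell on average from 117.6 ± 25.9 CPM to 61.91 ± 5.91 (SD, n = 3 each). The fitted log2 fold change was -1.002 with a standard error of 0.19 and a 95% interval from -1.42 to -0.59, or 0.499 of the control level (edgeR's quasi-likelihood test, adjusted p = 0.00948).

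The fall of Cited2 held its direction in all 18 alternative settings and passed the test in 15. The control libraries with the high receptor-gene background were also those with the higher Cited2 level. With control replicate 3 alone against the 3 double knockout libraries, an alternative chosen after seeing the data that assumes the lone library to vary like the others, the log2 fold change was -0.56 (adjusted p = 0.132, edgeR's quasi-likelihood test). Without double knockout replicate 1 it was -0.95 (adjusted p = 0.0548), and against a null of a 1.5-fold change the adjusted p was 0.101. Subtracting the receptor-gene background left it at -1.08 (adjusted p = 0.0104). Over the 18 settings the adjusted p ran from 5.03e-05 to 0.132.

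Cited4, a single-exon gene whose product is known to bind p300 and CBP and to coactivate AP-2, varied most among the double knockout libraries. It (ENSMUSG00000070803, chr4:120666572-120667820, plus strand) stood at 25.99, 23.77 and 23.31 CPM in the control and at 16.22, 34.23 and 13.24 CPM in the double knockout. Double knockout replicate 2 was above every control and the other two were below, with a coefficient of variation of 53.5% against 5.90% in the control. The log2 fold change of -0.27 with a standard error of 0.32 did not pass (edgeR's quasi-likelihood test, adjusted p = 0.59), and its 95% interval ran from -1.001 to 0.45.

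Cited1, known from kidney progenitors and melanocytes, was at the limit of detection. It (ENSMUSG00000051159, chrX:102247381-102252181, minus strand, 6 exon blocks) had 2, 10 and 0 counts in control replicates 1, 2 and 3 and 1 count in each double knockout library. The receptor-gene level over its exonic length would give 2.823 and 5.593 counts in control replicates 1 and 2, the libraries in which most of its counts lay. It did not pass the filter on low counts and so was not among the genes tested. In the edgeR fit without a filter its log2 fold change was -1.18 (quasi-likelihood test, adjusted p = 0.464). It rests on 12 counts summed over the control and 3 over the double knockout.

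**Figure D3:**
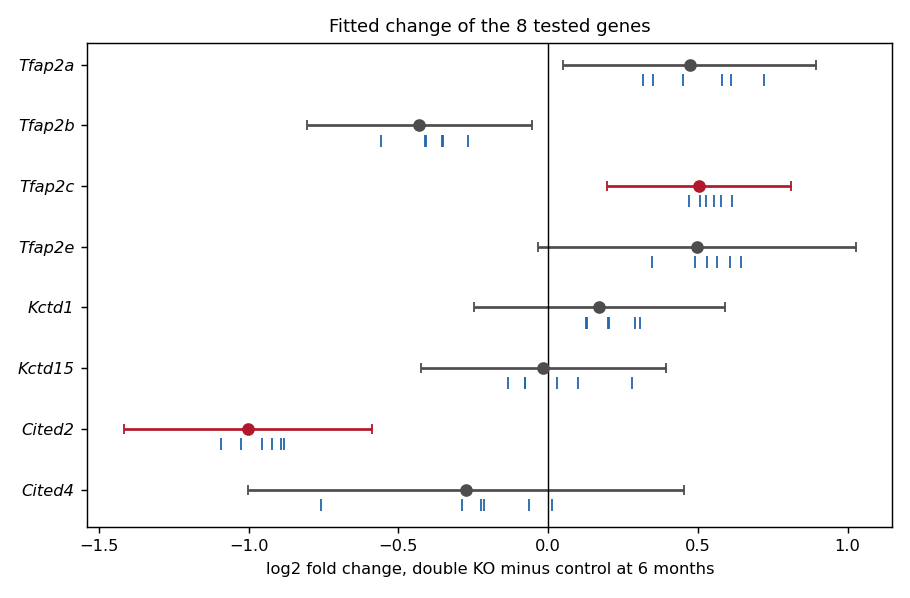
Fitted log2 fold change (x axis, double knockout minus control at 6 months) of the 8 tested genes, with 95% intervals; red marks the genes past an adjusted p of 0.05, and blue ticks below each point are the 6 values with 1 library left out. Cited2 at -1.002 and Tfap2c at 0.50 are the genes past the threshold, and the ticks of Cited2 run from -1.09 to -0.88.

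Within a library, Cited2 was 0.7342, 0.7658 and 0.4309 of the summed AP-2 level per exonic kb in control replicates 1, 2 and 3. It was 0.259, 0.2876 and 0.1888 of it in the double knockout. The ratio did not overlap between groups and averaged 0.644 ± 0.185 in the control and 0.245 ± 0.0509 in the double knockout (SD, n = 3 each), and no test was run on it. Cited2 per Cited4, by contrast, overlapped, at 3.295, 3.471 and 2.391 in the control and 2.451, 1.25 and 2.668 in the double knockout.

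**Figure D4:**
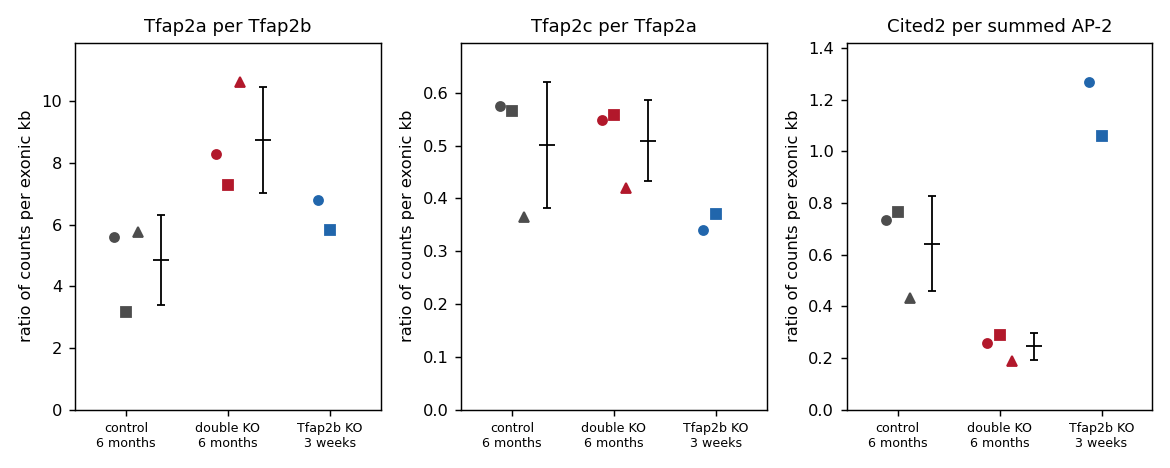
Ratios of counts per exonic kb within each library (y axes, linear, from 0) for Tfap2a per Tfap2b, Tfap2c per Tfap2a and Cited2 per summed AP-2; symbols mark replicates as in the plot of levels by library, and black bars give mean and SD at 6 months. Tfap2a per Tfap2b is 3.167 to 5.781 in the control and 7.284 to 10.63 in the double knockout, and Tfap2c per Tfap2a overlaps between the groups.

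The 9 genes were ordered by level within each group. On the scale of mean CPM per exonic kb, the control order was Cited2 at 59.75, Tfap2a at 52.94, Tfap2c at 25.74, Cited4 at 19.5, Kctd15 at 16.94, Tfap2b at 11.3, Kctd1 at 8.48, Tfap2e at 4.082 and Cited1 at 0.1995. Neighbours whose libraries overlapped were Cited2 with Tfap2a, Cited4 with Kctd15, and Tfap2b with Kctd1. In the double knockout Tfap2a came first at 77.19, then Tfap2c at 38.51 and Cited2 at 31.46, and these 3 did not overlap. Kctd15 at 17.62, Cited4 at 17, Kctd1 at 10.06 and Tfap2b at 8.829 followed, each overlapping its neighbour, ahead of Tfap2e at 6.099 and Cited1 at 0.03743. Cited2 thus stood first in the control by mean, level with Tfap2a within the spread, and below Tfap2a and Tfap2c in the double knockout.

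The genes of the acetyltransferases that CITED proteins recruit did not pass the test. Ep300, encoding p300, stood at 231.9, 176.2 and 229.8 CPM in the control and 229.3, 268.7 and 274.6 in the double knockout, with a log2 fold change of 0.20 and a 95% interval from -0.13 to 0.54 (edgeR's quasi-likelihood test, adjusted p = 0.384). Crebbp, encoding CBP, stood at 517.9, 391.6 and 442.7 CPM in the control and 456.1, 477.2 and 462.8 in the double knockout. Its log2 fold change was -0.03 with a 95% interval from -0.34 to 0.28 (adjusted p = 0.901 in the same edgeR test), and 0.04 under total-count scaling. Of 7 other partners of CITED proteins (Hif1a, Epas1, Smad2, Smad3, Smad4, Ppara and Tcf4) none passed in edgeR, DESeq2 or limma-voom, 1 had an unadjusted edgeR p under 0.05, and their median log2 fold change was 0.17.

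Of 14 AP-2 partners outside the 9 genes, 13 were tested, and 1 passed: Rb1, the retinoblastoma tumour suppressor, which binds AP-2. Rb1 fell from 190.5 ± 12.1 CPM to 137.2 ± 17.5 (SD, n = 3 each), by a log2 fold change of -0.55 with a standard error of 0.13 (edgeR's quasi-likelihood test, adjusted p = 0.0258), and that call was lost in 10 of 18 alternatives. The median of the 13 was -0.02. Of 16 genes known as AP-2 targets, all were tested, 2 rose and 1 fell, with a median of 0.06, beside 14.9% of all genes tested that passed. DESeq2 and limma-voom each called 4 of the 16, beside 3835 (DESeq2) and 2142 (limma-voom) of all 17755 genes tested. The largest rise was Krt14, the keratin whose promoter drives the Cre transgene, from 1230.4 ± 247.4 CPM to 4236.4 ± 734.9 (SD, n = 3 each), with a log2 fold change of 1.71 with a standard error of 0.19 (adjusted p = 0.000969). The fall was in Cdkn1a, the cell-cycle inhibitor p21, from 383.9 ± 58.8 CPM to 272 ± 21.9 (SD, n = 3 each), with a log2 fold change of -0.57 (adjusted p = 0.0343), lost in 10 of 18 alternatives. Without control replicates 1 and 2 the log2 fold change was 1.44 for Krt14 and -0.35 for Cdkn1a.

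Krt14 also belongs to the basal keratinocyte markers, of which 5 of 8 rose and none fell, with a median log2 fold change of 0.89. Of the 6 suprabasal markers 1 rose, Krt1, and 1 fell, Dsc1. Proliferation genes rose in 8 of 10, with a median of 1.39 and the largest rise in Ccna2 (1.93). Among markers of other cells, dermal fibroblast genes fell in 4 of 8 with a median of -2.08 and the largest fall in Col1a2 (-2.48). Sebaceous gland genes fell in 1 of 7 tested, Scd1 (-2.09), with a median of -1.14. Skeletal muscle genes fell in 2 of 3 tested, with a median of -1.98 and the largest fall in Ttn (-2.11). Hair follicle stem cell markers rose in 1 of 8, Postn (2.04), and fell in 2 of 8, most in Lgr5 (-3.63), with a median of -0.93. Hair shaft and inner root sheath genes fell in 1 of 7 tested, Msx2 (-1.22), with a median of -1.06. Of 6 T cell markers 1 rose, Thy1 (1.75), while the median of the list was -0.42. No gene of the melanocyte, adipocyte, endothelial, myeloid, Schwann cell and red blood cell lists passed edgeR's test, with 5, 1, 5, 7, 4 and 3 tested. The melanocyte, myeloid, Schwann cell and red blood cell lists each had 1 gene at an unadjusted p under 0.05, and DESeq2 called 1 gene in each of these except the myeloid list. Without control replicates 1 and 2, edgeR called 2 basal, 3 proliferation and 1 sebaceous gene, and 0 of the suprabasal, dermal fibroblast, skeletal muscle, hair follicle stem cell, hair shaft and T cell lists, where 437 genes were called in all. No listed marker was at 0 in all 6 libraries. The part of these shifts in the changes of Tfap2c and Cited2 was not tested.

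At 3 weeks, the 2 libraries labelled Tfap2b knockout held 12971951 and 12512099 counts. The controls of that age were listed at 0 for every gene, and age and genotype cannot be told apart against the groups at 6 months, so no test was made. Tfap2b stood at 44.87 and 71.69 CPM, one value below and one within the range of the 6-month controls, and its gene-level count did not show a loss here either. Tfap2a stood at 155.8 and 213.7 CPM, Tfap2c at 60.28 and 89.75, and Tfap2e at 12.8 and 15.66. Cited2, at 193.9 and 227.6 CPM, was higher in both than in any of the 6 libraries from 6 months. Per exonic kb it was 1.269 and 1.06 times the summed AP-2 genes, above all 6-month ratios. One of these libraries had strong signal from other tissue: adipocyte markers summed to 3044.5 CPM in one and 1.119 in the other, and dermal fibroblast markers to 2687.2 and 17.66. The part of that signal in the Cited2 levels was not tested. By mean CPM per exonic kb the order was Cited2 at 107.1, Tfap2a at 56.97, Tfap2c at 20.39, Cited4 at 15.95, Kctd15 at 15.8, Tfap2b at 9.195, Tfap2e at 6.825, Kctd1 at 6.507 and Cited1 at 0.0879. Only Cited2, Tfap2a and Cited1 were apart from all their neighbours in that order.

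The genes whose pattern over the 8 libraries was most like that of an AP-2 gene were found by the root mean square difference of log2(CPM + 1), centred on each gene's mean, among 8623 protein-coding genes with a mean of at least 10 CPM. For Tfap2a they were Slc35a5 (0.101), Twsg1 (0.126) and Slc39a6 (0.130), beside a median difference of 0.396. For Tfap2b they were Rheb (0.117), Avl9 (0.125) and Atp6v1c1 (0.126), beside 0.428, and for Tfap2c Epb41l4a (0.101), Gnai1 (0.104) and Abce1 (0.109), beside 0.468. The libraries share group, depth and tissue content, so these are descriptions of pattern only.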

How the data were processed

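RNA was sequenced as paired-end 150 bp reads after ribosomal RNA depletion, per the labels' protocols. The deposited files hold whole-number counts per gene made by the authors. Trimmomatic 0.36, STAR 2.5.2b and featureCounts of Subread 1.5.2, with the builds GRCm38 and GRCh38, are named without roles per the submitters' processing notes; strand, multi-mapping and gene models are not given in the sources used here. Coordinates are those of the files, and 48970 of 49315 identifiers were in GENCODE M21. Groups and replicate numbers came from titles. Without molecular identifiers, Poisson intervals (95%, exact) and the floor of 3 counts cover counting error only.

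CPM is counts per 1000000 counts of the library, without TMM factors. The 6 libraries from 6 months were fitted with edgeR 4.0.16 (R 4.3.3; filterByExpr, TMM, robust glmQLFit with a prior count of 2, glmQLFTest). P-values were adjusted by Benjamini-Hochberg over every gene in the fit, with 0.05 as threshold. It was tested on simulated data. Exact permutation tests were run on the Tfap2a to Tfap2b log2 ratio and on the Tfap2c share. The other ratios and shares were not tested. Alternatives covered scaling, filters, DESeq2 1.42.0, limma-voom (limma 3.58.1), a replicate block, all libraries in one fit, a test against a 1.5-fold change, background subtraction, removal of 20 dominant genes and each library left out; leaving out control replicates 1 and 2, and TMM-scaled CPM, were added after seeing the data. The 9 genes and all lists were chosen with earlier results of these data known. Named beyond them by rule were the largest change past the threshold in each direction of a list, with Krt14, Ep300, Crebbp and Tfap2d. Gm26688 and Gm12781 were named outside that rule, as genes that share exon bases with Tfap2a and Kctd15.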

Additional observations from a re-analysis of the deposited data

Results flagged for a closer look

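The libraries labelled Tfap2b knockout at 3 weeks enter no test between groups, and each held signal above the limit of 3 counts for these genes, which is why they are listed. In replicate 1 the levels were 155.8 CPM for Tfap2a, 44.87 for Tfap2b, 60.28 for Tfap2c, 12.8 for Tfap2e, 25.9 for Kctd1, 71.54 for Kctd15, 0.3084 for Cited1 (4 counts), 193.9 for Cited2 and 18.66 for Cited4. In replicate 2 they were 213.7 CPM for Tfap2a, 71.69 for Tfap2b, 89.75 for Tfap2c, 15.66 for Tfap2e, 20.78 for Kctd1, 62.42 for Kctd15, 227.6 for Cited2 and 21.18 for Cited4, and Cited1 had 0 counts. Beside the 6 libraries from 6 months, Cited2 lay above their range in both libraries, Tfap2b and Tfap2c below it in replicate 1, and Kctd1 below it in replicate 2. The other values lay within it.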

How the results depend on the processing

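Of the 9 genes, the number past the threshold (2) became 1 with the replicate block, with all libraries in one fit and with background subtraction, 0 in the test against a 1.5-fold change and 0 without control replicates 1 and 2, and it ran from 0 to 3 with 1 library left out (0 without double knockout replicate 1, 3 without control replicate 3). Over all genes, 2637 became 4809 without a filter, 1729 with the replicate block, 585 in the test against a 1.5-fold change and 437 without control replicates 1 and 2, and ran from 668 (without double knockout replicate 1) to 7544 (without control replicate 3). The number of genes tested also moved with the setting, so these counts are not shares. The 4809 without a filter were of 42554 genes tested, and the 2637 of 17755. The 3 of the 9 genes without control replicate 3 stood beside 7544 of 21030. The 0 without double knockout replicate 1 stood beside 668 of 21237. In these 1-library settings the count of the 9 genes moved with that of all genes. Deviations from the group means correlated at 0.0276, -0.161 and -0.0574 between same-numbered samples, and at -0.111 to 0.169 between differently numbered ones. Deviations within a group sum to 0, so these values depend on one another and do not settle whether the replicate numbers pair the samples. With the replicate block the Tfap2a to Tfap2b log2 ratio (0.88) had a 2-sided exact sign-flip permutation p of 0.25. That is the smallest p that 3 pairs allow. That ratio kept its direction throughout, from 0.60 to 1.03 with 1 library left out, and was 0.58 without control replicates 1 and 2. Tfap2a passed without a filter (log2 fold change 0.57) and without control replicate 3 (0.72), and ranged from 0.20 to 0.72. Tfap2b (-0.56 to -0.27), Tfap2e (0.35 to 0.64) and Kctd1 (0.12 to 0.47) kept their direction and never passed. The sign of Kctd15 turned with total counts (0.0461), no filter (0.0843) and the block (0.0015), and it ran from -0.14 to 0.28 with 1 library left out and was -0.35 without control replicates 1 and 2. Cited4 ran from -0.76 to 0.0120 (above 0 without double knockout replicate 3) and Crebbp from -0.12 to 0.0921 with 1 library left out; Crebbp also turned with total counts (0.0353), no filter (0.0847) and without control replicates 1 and 2 (0.0163). The difference in the Tfap2c share (2.23 percentage points) ran from -0.11 (without control replicate 3) to 4.12 with 1 library left out and was 6.92 without control replicates 1 and 2. The cause of these shifts was not tested. Cited1 and Tfap2d were near the floor. Most of their counts at 6 months lay in control replicates 1 and 2, the libraries with the high receptor-gene background.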
